A study of Mus musculus with 16 samples.

Results

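The acute-phase serum proteins described here were 10 genes of the 24984 gene symbols in the count files: the serum amyloid A genes Saa1, Saa2, Saa3 and Saa4, the lipocalin Lcn2, haptoglobin (Hp), hemopexin (Hpx), the orosomucoids Orm1 and Orm2, and the metalloreductase Steap4. Most are known acute-phase genes of serum proteins, while Saa4 is known as the constitutive member of its family and Steap4 acts at the cell membrane. All 10 were chosen from their measured counts in these libraries, above all in the liver of NT replicate 4 and in the kidney library of the same number. Their liver values are therefore given as a description, with no test, and their kidney values with and without that kidney library. The study asked whether knocking down Fos, a subunit of the transcription factor AP-1, changes inflammation-related genes in aged organs. Wild-type C57BL/6 mice, female by the study's methods and labelled as 24 months old, received an AAV8 vector through the tail vein that carried either a short hairpin against Fos (shFos) or a non-targeting sequence (NT). By the methods, tissue was taken 3 months after injection, and bulk RNA of kidney and liver was sequenced. This gave 4 groups of 4 libraries: kidney NT, kidney shFos, liver NT and liver shFos, with replicates written here as NT1 to NT4 and shFos1 to shFos4. The sources name no promoter that limits the hairpin to a cell type. The labels do not say whether kidney and liver libraries of the same number came from the same mouse, or that each library is a separate animal, so the p-values measure only the spread between these libraries.

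Acute-phase proteins are made mainly by hepatocytes, which raise or lower their transcription when interleukin 6, interleukin 1 and related cytokines signal through STAT3, C/EBP and NF-kB factors. Serum amyloid A proteins bind to high-density lipoprotein, haptoglobin and hemopexin capture free hemoglobin and heme, lipocalin 2 withholds iron by binding bacterial siderophores, and the orosomucoids carry drugs and steroids in plasma. In the kidney, lipocalin 2 is known as a product of injured tubule cells, and Saa3 as a member of its family that is made outside the liver.

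The reads counted within genes numbered 16652150 to 18300277 per liver library and 14194543 to 15534665 per kidney library. Levels are given in CPM, counts scaled to the depth of the library, after TMM normalization within each tissue. The tissue labels were checked against markers: 8 hepatocyte markers, led by Alb, summed to between 48738 CPM (NT4) and 194257 CPM (NT1) in the livers, and to between 667 and 2656 CPM in the kidneys. The 9 kidney tubule and podocyte markers, led by Kap, Umod or Slc34a1, summed to between 11549 CPM (NT4) and 39932 CPM (shFos4) in the kidneys and to at most 4.50 CPM in the livers, where Slc5a2 stood at 0 in 7 of 8 libraries. Fos, the target of the hairpin, stood at 6.70, 5.25, 4.23 and 5.28 CPM in kidney NT1 to NT4 and at 2.57, 4.12, 3.93 and 2.30 CPM in kidney shFos1 to shFos4, and the lowest NT value lay above the highest shFos value. In the liver Fos stood at 1.12, 2.36, 3.69 and 2.85 CPM in the NT libraries and at 1.63, 1.5, 2.76 and 1.38 CPM in the shFos libraries, which overlapped. In the edgeR fit of the kidneys, Fos had a log2 fold change (shFos over NT) of -0.73 (SE 0.25, adjusted p = 0.0955), which did not pass the threshold of an adjusted p under 0.05, while DESeq2 gave -0.73 (adjusted p = 0.0427), which did, and -0.73 (adjusted p = 0.0796) without kidney NT4, which did not.

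The 2 NT4 libraries stood apart from the rest of their tissue across the whole genome, not only in acute-phase genes. Liver NT4 was the highest of the 8 livers for 3475 of 13144 genes tested (26.4%) and the lowest for 3422 (26%). All 10 members were highest in liver NT4, which the choice of the members fixes, so that nothing is read from that count. Kidney NT4 was the highest of the 8 kidneys for 3582 of 14892 genes (24.1%) and the lowest for 4016 (27.0%), and kidney shFos3 came next, highest for 3022 (20.3%) and lowest for 2537 (17.0%). Kidney NT4 was the highest kidney for 4 of the 10 members, namely Saa3, Lcn2, Hp and Steap4, while kidney NT1 was the highest for Saa1, Saa2, Hpx and Orm2. For Steap4 the margin was small, at 14.17 CPM in NT4 beside 14.12 CPM in NT3. Nothing is read from the count for kidney NT4 either, since it was among the libraries that chose the members.

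All 10 members were found in the mouse annotation (GENCODE M21, build mm10). The serum amyloid A genes lie side by side on chromosome 7, with Saa3 at chr7:46711998-46715700 (minus strand), Saa4 at chr7:46727998-46732603 (minus), Saa1 at chr7:46740497-46742980 (minus) and Saa2 at chr7:46751790-46754313 (plus), and Hpx lies on the same chromosome at chr7:105591613-105600137 (minus). Orm1 at chr4:63344560-63348163 and Orm2 at chr4:63362449-63365878 are neighbours on the plus strand of chromosome 4. Lcn2 lies at chr2:32384633-32388252 (minus), Hp at chr8:109575128-109579172 (minus) and Steap4 at chr5:7960457-7982213 (plus). No member shared exon bases with another gene. Of the 150-base windows of all annotated transcripts of each gene, Saa1 and Saa2 shared 54. These were 2.11% of the 2558 windows of Saa1 and 2.03% of the 2660 windows of Saa2. The principal transcripts of the pair are shorter, at 609 and 606 bases. The share of reads that could belong to either gene may therefore be larger than these percentages, and it was not measured. No other member had a window in common with another member.

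The promoters of the members were read from the RefSeq set (build GRCm38.p6), which holds 250 bases before each start and 50 from it. In it 8 of the 10 members were matched, and Hp and Orm1 were not in the set. On both strands the windows were searched for the letters of an AP-1 site (TGANTCA), a STAT site (TTCNNNGAA), a C/EBP site (TTNNGNAA) and an NF-kB site (GGANTTNCC), and matches are set in capitals. Saa1 and Saa2 are shown because they had the largest excess in liver NT4, Saa3 and Lcn2 because they stood out in kidney NT4, and Orm2 because it was the member whose window held AP-1 letters. They are, in the order listed, chr7:46742931-46743230 (minus strand), chr7:46751583-46751882 (plus), chr7:46715627-46715926 (minus), chr2:32387690-32387989 (minus) and chr4:63362199-63362498 (plus), each written 5′ to 3′ along its gene's strand.
Saa1: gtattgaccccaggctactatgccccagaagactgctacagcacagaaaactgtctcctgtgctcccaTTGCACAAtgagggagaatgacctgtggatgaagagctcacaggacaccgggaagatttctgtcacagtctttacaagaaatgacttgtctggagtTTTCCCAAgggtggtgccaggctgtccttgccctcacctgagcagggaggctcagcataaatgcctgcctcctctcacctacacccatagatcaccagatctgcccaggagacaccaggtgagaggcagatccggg
Saa2: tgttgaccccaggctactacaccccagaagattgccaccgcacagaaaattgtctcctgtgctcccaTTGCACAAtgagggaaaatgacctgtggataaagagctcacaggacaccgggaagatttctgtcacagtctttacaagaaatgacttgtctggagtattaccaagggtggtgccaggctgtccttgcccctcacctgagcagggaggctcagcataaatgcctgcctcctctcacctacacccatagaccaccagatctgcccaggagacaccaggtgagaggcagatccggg
Saa3: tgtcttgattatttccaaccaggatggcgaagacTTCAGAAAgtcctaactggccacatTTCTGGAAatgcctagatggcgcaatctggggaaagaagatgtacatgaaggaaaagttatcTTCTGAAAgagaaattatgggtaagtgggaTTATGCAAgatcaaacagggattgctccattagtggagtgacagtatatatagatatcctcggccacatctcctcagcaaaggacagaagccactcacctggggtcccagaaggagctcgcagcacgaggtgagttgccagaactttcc
Lcn2: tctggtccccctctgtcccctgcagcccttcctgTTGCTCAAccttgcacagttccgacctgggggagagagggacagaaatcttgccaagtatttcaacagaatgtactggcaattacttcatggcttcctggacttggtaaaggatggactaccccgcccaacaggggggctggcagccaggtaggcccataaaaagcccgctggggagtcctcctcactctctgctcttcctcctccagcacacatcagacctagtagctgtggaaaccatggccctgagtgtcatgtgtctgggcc
Orm2: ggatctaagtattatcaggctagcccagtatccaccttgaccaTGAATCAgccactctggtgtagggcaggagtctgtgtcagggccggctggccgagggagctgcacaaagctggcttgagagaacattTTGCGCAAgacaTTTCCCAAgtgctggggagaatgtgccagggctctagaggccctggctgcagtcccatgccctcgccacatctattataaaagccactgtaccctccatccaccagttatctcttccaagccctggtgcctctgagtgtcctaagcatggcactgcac

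The C/EBP letters were present in all 8 matched windows, beside 40.7% of the 27025 promoters of the set. In Saa1 the run TTGCACAA lay at bases -182 to -175 from the start, and in Saa2 the same run lay at -183 to -176. Lcn2 carried TTGCTCAA at -216 to -209, and Saa3 held 4 matches, of which TTATGCAA at -99 to -92 was the nearest to the start. AP-1 letters were found in 1 of the 8 windows, as TGAATCA at -207 to -201 of Orm2, beside 7.93% of all promoters. STAT letters were also found in 1 window, as TTCCCGGAA at -116 to -108 of Steap4, beside 8.47% of all promoters, and NF-kB letters in 0 of 8, beside 3.91%. A match is a description of the letters, and no match says only that these letters are not in this window. Aligned to each other, the Saa1 and Saa2 windows were identical at 287 of 301 positions (95.3%), while the other pairs of serum amyloid A windows were identical at 45.9% to 51.3%.

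In the liver, the whole group was at its highest in NT4, and Saa1 and Saa2 stood out most. Saa1 stood at 66.1, 393, 41.8 and 7857 CPM in liver NT1 to NT4 and at 55.4, 69.0, 92.2 and 24.7 CPM in shFos1 to shFos4. Saa2 stood at 56.7, 256, 35.6 and 10838 CPM in the NT livers and at 30.8, 52.2, 66.7 and 20.9 CPM in the shFos livers. In both genes NT4 lay far above all other livers, NT2 was the next highest, and the remaining NT libraries lay among the shFos libraries, so that the groups overlapped. Over the median of the other 3 NT livers, NT4 was 119-fold higher for Saa1 and 191-fold higher for Saa2, and over the highest of the other 7 livers it was 20-fold and 42.4-fold higher. Because of this library the NT mean was 2089.5 ± 3848 CPM (SD, n = 4) for Saa1 and 2797 ± 5362 CPM for Saa2, beside 60.3 ± 28.2 and 42.6 ± 20.7 CPM in the shFos livers.

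Saa3, the family member known from macrophages and fat as well as liver, was the least abundant member per length in the shFos livers, at 7.25, 21, 11 and 102 CPM in NT1 to NT4 and 7.46, 13.9, 14.4 and 5.62 CPM in shFos1 to shFos4. Saa4, known as the constitutive member of the family, stood at 240.3, 278, 187 and 543 CPM in the NT livers and 262, 232, 252 and 244 CPM in the shFos livers. Both were highest in NT4, but by different margins: NT4 lay 9.23-fold over the median of the other NT livers for Saa3 and 2.26-fold for Saa4, the smallest margin among the 10 members. The 4 shFos livers held Saa4 within a narrow range (248 ± 12.6 CPM, SD, n = 4), while the NT livers spread on both sides of it.

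Lcn2 and Steap4 act on iron. Lcn2 stood at 233, 741, 93.0 and 6143 CPM in liver NT1 to NT4 and at 145, 121, 183 and 93.0 CPM in the shFos livers. NT4 was again the highest and NT2 the next, and NT3 and shFos4 were the lowest, so that the groups overlapped. NT4 was 26.3-fold over the median of the other NT livers and 8.29-fold over the highest other liver. Steap4, which reduces iron and copper at the cell membrane, spanned a smaller range, at 259, 291, 166 and 642 CPM in the NT livers and 157, 217, 241 and 158 CPM in the shFos livers. Its highest liver was 4.10-fold over its lowest, beside 66.1-fold for Lcn2.

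Haptoglobin and hemopexin, the carriers of hemoglobin and heme, were abundant in every liver. Hp stood at 2528, 5454, 2311 and 18009.8 CPM in the NT livers and 3389.9, 2702, 4193 and 2329.6 CPM in the shFos livers. Hpx stood at 4892, 9186, 3999 and 25360.1 CPM in the NT livers and 5381, 5147, 11868 and 4559 CPM in the shFos livers. NT4 was 7.12-fold over the median of the other NT livers for Hp and 5.18-fold for Hpx. The second highest liver was NT2 for Hp and shFos3 for Hpx, and Hpx was the only member whose second highest liver was not NT2.

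The orosomucoids Orm1 and Orm2 were highest in NT4 too. Orm1 stood at 1553, 2488, 1114 and 11321 CPM in the NT livers and 1571, 1401, 1566 and 1241 CPM in the shFos livers. Orm2 stood at 207, 985, 217 and 2816 CPM in the NT livers and 432, 425, 463 and 107 CPM in the shFos livers. NT4 was 7.29-fold over the median of the other NT livers for Orm1 and 13.0-fold for Orm2, and Orm2 was lowest in shFos4, which lay well under the other shFos livers.

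**Figure D1:**
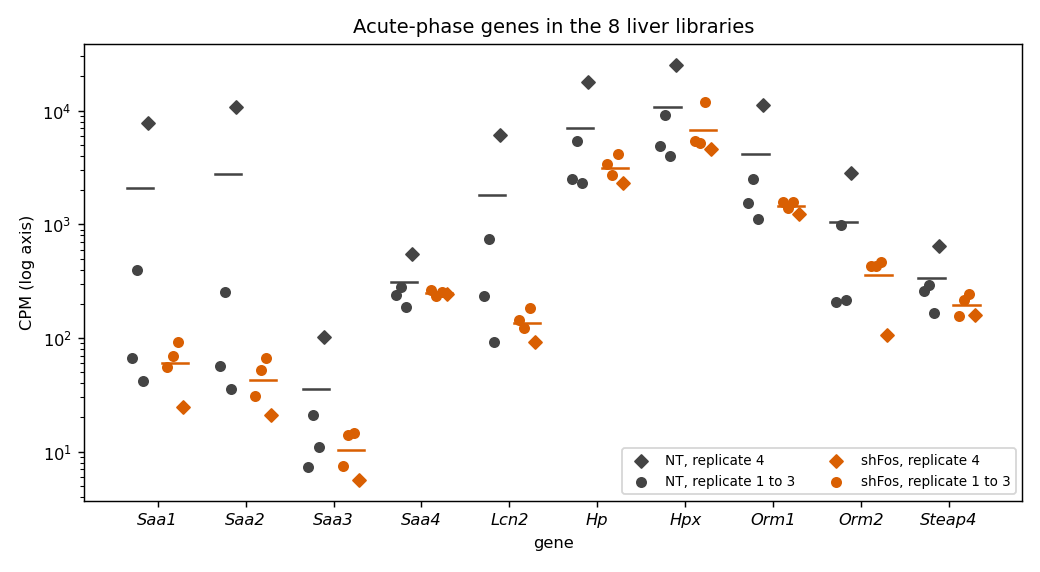
CPM on a log axis of each of the 10 members in the 8 livers, dark for NT and orange for shFos, with diamonds for replicate 4, circles for replicates 1 to 3 and a line at each group's mean. In every panel the dark diamond of NT4 is the highest point, while the other NT livers and the shFos livers overlap.

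The members took up a large part of liver NT4. Of its 18300277 counted reads, 1582104 lay in the 10 members, which is 8.65% (95% Wilson interval 8.63 to 8.66), while the other 7 livers gave 0.880% to 1.96%, with intervals at most 0.0129 percentage points wide. Saa1 and Saa2 alone took 1.93% of NT4 (1.93 to 1.94), beside 0.00458% to 0.0632% of the other livers. Such intervals cover counting error only. The share of Saa2 in the pair also differed. Saa2 reads over Saa1 reads came to 0.857, 0.650, 0.853 and 1.38 in liver NT1 to NT4 and to 0.556, 0.757, 0.723 and 0.845 in shFos1 to shFos4, so that NT4 was the only liver with more reads in Saa2 than in Saa1. In NT4 Saa2 made up 58.0% of the pair (95% exact interval 57.8 to 58.1), beside 35.7% to 46.2% in the other livers. For the orosomucoids, Orm2 reads over Orm1 reads came to 0.133, 0.396, 0.195 and 0.249 in the NT livers and 0.275, 0.304, 0.296 and 0.0861 in the shFos livers, and NT4 lay inside the range of the others.

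Levels between members were compared as CPM per kilobase of the principal transcript. By their median over the 4 shFos livers, the order was Hpx (3512), Hp (2265), Orm1 (1914), Orm2 (553), Lcn2 (145), Saa4 (118), Saa1 (102), Saa2 (68.5), Steap4 (59.4) and Saa3 (19.3). Within each of the 4 shFos livers Hpx lay above Hp, Hp above Orm1, Orm1 above Orm2, Orm2 above Lcn2, Saa1 above Saa2 and Steap4 above Saa3, while Lcn2 lay above Saa4 and Saa2 above Steap4 in 3 of them and Saa4 above Saa1 in 2. Across different shFos livers the ranges of neighbours overlapped for all pairs but Orm1 and Orm2, and Steap4 and Saa3. In NT4 the order per kilobase was different, with Saa2 at the top (17885), followed by Hpx (16918), Orm1 (14608), Hp (13390.2), Saa1 (12901), Lcn2 (6714), Orm2 (3634), Saa4 (259), Steap4 (204) and Saa3 (183). In the other 3 NT livers the medians ran from Hpx (3263) to Saa3 (19.9), with Saa1 at 109 and Saa2 at 93.6, near their shFos levels.

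The comparison of shFos with NT in the liver rested on NT4 for most members. With all 8 livers every member had a lower fitted level in shFos, with log2 fold changes of -5.11 for Saa1, -6.04 for Saa2, -1.77 for Saa3, -0.33 for Saa4, -3.73 for Lcn2, -1.17 for Hp, -0.69 for Hpx, -1.51 for Orm1, -1.57 for Orm2 and -0.81 for Steap4. Without NT4 the same fit gave -1.47 for Saa1, -1.45 for Saa2, -0.35 for Saa3, 0.06 for Saa4, -1.40 for Lcn2, -0.13 for Hp, 0.15 for Hpx, -0.26 for Orm1, -0.40 for Orm2 and -0.31 for Steap4. The median of the members moved from -1.54 to -0.33, and Saa4 and Hpx changed sign. Across all 13144 liver genes edgeR called 0 (0%) at an adjusted p under 0.05, with 886 at an unadjusted p under 0.05, and DESeq2 called 37 of 12189. Neither tool called a member, DESeq2 gave no p for Saa1 and Saa2, whose counts its filter on extreme counts set aside, and nothing is read from this, since liver values chose the members.

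To set the surge against all genes, the excess of NT4 was taken as its log2 CPM (prior count 2) minus the median of the other 3 NT livers. Over the 13144 liver genes it had a median of 0.01, with its 5th and 95th percentiles at -1.24 and 1.09. The members ranked from the top as Saa2 (excess 7.58, rank 1), Saa1 (6.89, rank 2), Lcn2 (4.72, rank 9), Orm2 (3.70, rank 26), Saa3 (3.19, rank 43), Orm1 (2.87, rank 65), Hp (2.83, rank 68), Hpx (2.37, rank 108), Steap4 (1.31, rank 433) and Saa4 (1.18, rank 562). An excess of at least 1 was found for 777 genes (5.91%) and for 10 of 10 members, which is a description since this library chose them.

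Beside the members, other genes of the acute-phase response were read from lists, which were chosen with earlier results of these data known. Of 22 other positive acute-phase genes, 18 were highest and 2 lowest in liver NT4, with a median excess of 1.64, and their summed level was 136187 CPM in NT4, led by Fga, and 44425 to 62860.5 CPM in the other livers, led by C3. The largest excess was found for Il1rn, the interleukin 1 receptor antagonist (1.52, 9.86, 3.85 and 92.5 CPM in NT1 to NT4), for the protease inhibitor Serpina3n (661, 690.1, 347 and 6604 CPM) and for the metallothionein Mt2 (401, 984, 178 and 3737 CPM). The list did not move as 1 block with the members: Hamp, which encodes the iron hormone hepcidin, and Agt were lowest in NT4, at 1030.0 and 637 CPM, and Crp, a minor acute-phase protein in mice, stood at 431 CPM with an excess of -0.67. Hamp, Agt and Crp were picked after their values were seen. Of 8 negative acute-phase genes, whose products fall in plasma during the response, 0 were highest and 3 lowest in NT4, with a median excess of -0.22. Their sum was 77162 CPM in NT4 and 143410 to 231966 CPM in the others. The 3 lowest, named after their values were seen, were Alb (169935, 108642, 104032 and 27312 CPM in NT1 to NT4), the thyroxine carrier Ttr (4212, 4230.4, 4594 and 1801 CPM) and the corticosteroid carrier Serpina6 (10782, 2972, 2277 and 3.59 CPM), while Apoa1, Trf and Rbp4 had excesses of 0.35, 0.17 and -0.06.

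Upstream of the members, the ligands, receptors and transducers were read from lists. Of 7 inducing ligands 3 passed the low-count filter, 0 of them was highest or lowest in NT4, and their median excess was -0.03. Il6 reached at most 0.370 CPM in any liver, in NT4, Il22 was at 0 in all 16 libraries, and Tnf, Il1a and Il1b had excesses of 0.33, -0.03 and -1.07, with Il1b at 4.48, 11.2, 16.7 and 5.29 CPM in NT1 to NT4, highest in NT3. Of 7 receptor genes 5 were highest in NT4 and 1 lowest (median excess 0.62). Il1r1, the signalling receptor for interleukin 1, stood at 36.9, 29.7, 37.3 and 552 CPM in NT1 to NT4, Osmr, a receptor chain for oncostatin M, at 6.99, 6.80, 4.21 and 35.3 CPM, and Il6ra had an excess of 0.86, while Lifr, the receptor for leukemia inhibitory factor and the 1 that was lowest, stood at 2624, 1476, 1468 and 65.8 CPM and was named after its values were seen. Of 10 signal and transcription genes 4 were highest and 0 lowest (median 0.32). Among them Socs3, the feedback inhibitor that STAT3 induces, stood at 8.77, 12.0, 9.41 and 144 CPM in the NT livers and Cebpd at 6.33, 9.92, 6.81 and 40.1 CPM, so that both were highest where the members were highest, and Nfkbiz had an excess of 0.97. The 5 receptor and handling genes of the secreted proteins gave 1 highest and 0 lowest (median 0.19), with excesses of 0.79 for the lipocalin receptor Slc22a17, 0.48 for Hmox1 and 0.19 for Cd163, the scavenger receptor for haptoglobin and hemoglobin.

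**Figure D2:**
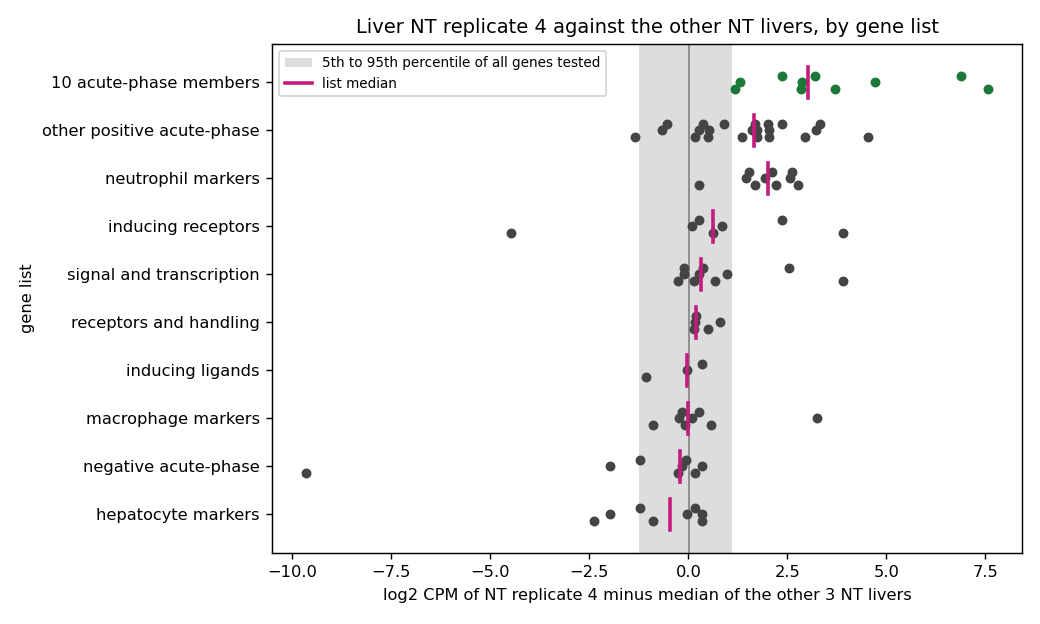
Excess of liver NT4 on the log2 scale, as its log2 CPM minus the median of the other 3 NT livers, for each gene of 10 lists (points) with each list's median (pink line) and the 5th to 95th percentile of all genes tested (grey band, -1.24 to 1.09). All 10 members lie above the grey band, with Saa1 and Saa2 farthest from it.

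Marker lists of cell types were read in the same libraries. Of 8 hepatocyte markers, 3 of which are also in the negative acute-phase list (Alb, Ttr and Apoa1), 0 were highest and 4 lowest in liver NT4, with a median excess of -0.46; Apoa1, Tat and Cps1 were at the upper end with 0.35, 0.34 and 0.16. Of 11 neutrophil markers 10 were tested in the liver and 9 of them were highest in NT4, with a median excess of 2.02. Their summed level was 36.9, 66.6, 30.0 and 188 CPM in NT1 to NT4 and 59.9, 14.4, 15.4 and 10.7 CPM in shFos1 to shFos4. It was led by S100a9 in NT1, NT2, NT4 (51.4 CPM) and shFos1, and by Csf3r in NT3, shFos2, shFos3 and shFos4. S100a8, Ngp and S100a9 had the largest excesses, at 2.76, 2.62 and 2.57, and the defining marker Ly6g stood at 0.317 CPM in NT4 and at 0 in shFos4. Lcn2 is also a product of neutrophil granules, and the part of these cells in its level was not tested. Of 8 macrophage markers 0 were highest or lowest in NT4 (median 0.00), and their sum was 299, 692, 1563 and 768 CPM in the NT livers and 563, 728, 399.5 and 437 CPM in the shFos livers, led by Lyz2 in all but NT3. The largest excesses were 3.25 for Marco, 0.58 for Cd68 and 0.26 for C1qb, and C1qa had 0.09. Adgre1, Clec4f, Csf1r and Lyz2 went the other way, at -0.90, -0.24, -0.15 and -0.09. Adipocyte markers summed to 3.76, 8.13, 8.37 and 19.6 CPM in the NT livers and 8.35, 14.8, 12.8 and 6.46 CPM in the shFos livers, with Fabp4 and Cidec, the 2 of 7 that were tested, both highest in NT4 (median 0.79) and Plin1 and Lep at 0 there. Tubule injury markers, 3 of 5 tested, gave 0 highest and 0 lowest (median -0.20) and summed to between 1542 and 1977 CPM in all livers, led by Clu. The part of these cell types in the liver values of the members was not tested, and fewer cells of a type and less RNA per cell cannot be told apart in bulk RNA.

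Outside the members, 3569 of the 12380 genes with at least 1 CPM in liver NT4 (28.8%) were higher there than in each of the other 7 livers. Ranked by the log2 difference from the highest other liver, Saa2 was at rank 1, Saa1 at 9, Lcn2 at 29, Saa3 at 61, Orm1 at 68, Hp at 109, Orm2 at 145, Steap4 at 242, Hpx at 262 and Saa4 at 337. The 10 genes outside the members with the largest such difference were E030018B13Rik (5.04), Igdcc4 (4.86), the bile acid and steroid sulfate carrier Slc10a6 (4.71), Mirg (4.63), Serpina3i (4.60), Itga2 (4.59), Bhlha15 (4.41), Cyp2d9 (4.03), Trp63 (3.98) and BB123696 (3.95). Of these, Serpina3i lies in the gene family of Serpina3n, which was also high there.

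Pairs of members were correlated over log2 CPM as a description, with libraries as points that share their tissue and, within a group, their treatment. Over the 8 livers the 45 pairs had a median r of 0.931, from 0.825 (Saa4 and Orm2) to 0.995 (Saa1 and Saa2). Over the 7 livers without NT4 the median was 0.736, from 0.160 to 0.984, so that the closeness of the members rested partly on that library. Over the 8 kidneys the median was 0.190, from -0.606 (Saa4 and Steap4) to 0.948 (Saa1 and Saa2), and 2 of 45 pairs were above 0.8, beside 45 of 45 over the 8 livers and 22 of 45 without liver NT4. The genes outside the members that were most like their mean z-score over the 8 livers were Tctn2 (r = 0.984, and 0.938 without NT4), Ctla2a (0.983 and 0.931), Cep162 (0.981 and 0.945), Arid5a (0.978 and 0.915) and 1810010H24Rik (0.977 and 0.893). Over the 8 kidneys they were Nr2f1 (0.958, and 0.954 without NT4), Mical3 (0.945 and 0.961), Wscd2 (0.942 and 0.915), Lmnb2 (0.941 and 0.943) and Rbm20 (0.940 and 0.937). Being the highest of all genes, such values are high by their selection.

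In the kidney the members fell into genes with many reads and genes with a few. Lcn2 had the most reads of all members in every kidney, and stood at 47.8, 69.4, 54.8 and 217 CPM in kidney NT1 to NT4 and at 72.7, 36.1, 15.9 and 23.5 CPM in shFos1 to shFos4. NT4 was the highest, at 3.97-fold the median of the other NT kidneys, the other NT kidneys lay close together, and shFos1 lay above them, so that the groups overlapped. The group means were 97.3 ± 80.5 CPM in NT and 37.1 ± 25.2 CPM in shFos (SD, n = 4), a ratio of 0.381. In the edgeR fit Lcn2 had a log2 fold change of -1.39 (SE 0.60, adjusted p = 0.148). Without NT4 the log2 fold change was -0.62 (adjusted p = 0.378), and without replicate 1 of both groups, left out after the data were seen, it was -2.22 (adjusted p = 0.0462). Nothing is read from that value passing the threshold, since the fit holds kidney NT4, and with NT4 also left out, which leaves 2 NT and 3 shFos kidneys, it was -1.32 (adjusted p = 0.0631). Over all alternatives the adjusted p of Lcn2 ran from 0.0462 to 0.501, and its log2 fold change was negative in each.

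Hp in the kidney stood at 17.4, 10.8, 8.07 and 58.2 CPM in the NT libraries and 11.1, 16, 6.22 and 3.07 CPM in the shFos libraries. NT4 was again the highest, 5.37-fold over the median of the other NT kidneys, and shFos1 and shFos2 lay within the range of the other 3 NT kidneys. The means were 23.6 ± 23.4 and 9.10 ± 5.67 CPM (SD, n = 4), and the edgeR log2 fold change was -1.37 (SE 0.68, adjusted p = 0.203). Without NT4 it was -0.40 (adjusted p = 0.611), and over the alternatives the adjusted p ran from 0.159 to 0.887.

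Among the members with reads in every kidney, which leaves out Saa2 and Saa4, Saa3 gave the widest range there. Its highest kidney was 170-fold over its lowest, which held 2 reads. It stood at 0.197, 1.82, 4.23 and 21.9 CPM in NT1 to NT4, where NT4 held 340 reads, and at 0.128, 0.465, 0.5 and 0.384 CPM in shFos1 to shFos4, where no library held more than 7 reads. NT4 was 5.18-fold over the next highest kidney, NT2 and NT3 lay above all shFos kidneys, and NT1 lay among them with 3 reads. The means were 7.03 ± 10 and 0.369 ± 0.168 CPM (SD, n = 4). The low-count filter of edgeR removed Saa3; in the fit without that filter its log2 fold change was -4.22 (adjusted p = 0.102), and DESeq2 gave -4.27 (adjusted p = 0.00802). Nothing is read from that value passing the threshold, since kidney NT4 was among the libraries that chose the members. Without NT4, in fits added after the data were seen, the log2 fold change was -2.49 in edgeR without the filter (adjusted p = 0.127) and -2.50 in DESeq2, which gave no adjusted p. With replicate 1 of both groups left out beside NT4, a fit of 2 NT and 3 shFos kidneys also added after the data were seen, the log2 fold change was -2.76 (adjusted p = 0.00604). Nothing is read from that value either, since Saa3 passed the filter of edgeR there through NT2 and NT3, where it is high, and NT1, the NT kidney with the fewest reads of Saa3, is not in that fit. Over all alternatives it ran from -4.64 to -2.49, with an adjusted p from 0.00604 to 0.194.

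Steap4 stood at 8.87, 12.1, 14.1 and 14.2 CPM in the NT kidneys and 8.67, 13.4, 10.4 and 6.91 CPM in the shFos kidneys, the narrowest range of the members, with the highest kidney 2.05-fold over the lowest. Its edgeR log2 fold change was -0.32 (SE 0.23, adjusted p = 0.362), and -0.24 without NT4. Orm1 stood at 8.14, 1.62, 5.40 and 1.67 CPM in the NT kidneys and 4.69, 13.4, 3.65 and 1.69 CPM in the shFos kidneys, where shFos2 was the highest of all 8 and NT4 lay near the bottom. Hpx stood at 11.8, 1.82, 3.12 and 3.48 CPM in the NT kidneys and 9.18, 1.53, 2.72 and 3.15 CPM in the shFos kidneys, so that replicate 1 was far above the rest in each group. Orm1 had a log2 fold change of 0.48 (SE 0.70, adjusted p = 0.663), which was -0.33 without shFos2 and 0.22 without NT4. Hpx had one of -0.28 (SE 0.68, adjusted p = 0.8), which was 0.56 without NT1 and -0.42 without NT4.

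The remaining members were at the edge of detection in the kidney. Saa1 had 29, 8, 3 and 6 reads in NT1 to NT4 and 4, 3, 2 and 2 in shFos1 to shFos4, and Saa2 had 31, 2, 1 and 6 and 2, 0, 0 and 0 reads. NT1 was the highest kidney for both, not NT4, and a count of 0 allows up to 3 reads, so that the shFos kidneys could not be told from each other. Orm2 reached at most 22 reads (NT1) and Saa4 at most 12 (shFos1). At or under 3 reads were 4 of the 8 kidneys for Saa1, 6 for Saa2, 4 for Saa4, 2 for Saa3 and 2 for Orm2. The fit without the low-count filter gave log2 fold changes of -1.93 for Saa1 (adjusted p = 0.128), -3.94 for Saa2 (adjusted p = 0.113), 0.32 for Saa4 (adjusted p = 0.861) and -0.27 for Orm2 (adjusted p = 0.848) in edgeR. Without NT4 the same fit gave -2.17 for Saa1 (adjusted p = 0.12), -4.15 for Saa2 (adjusted p = 0.136), 0.08 for Saa4 (adjusted p = 0.965) and -0.52 for Orm2 (adjusted p = 0.701). NT1 held most of the NT reads of Saa1 and Saa2, and no fit without NT1 gave these genes a value. How far their fold changes rested on NT1 was therefore not tested.

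Across the kidney, edgeR called 0 of 14892 genes (0%) at an adjusted p under 0.05, with the smallest adjusted p at 0.0660, while 4747 genes had an unadjusted p under 0.05 and DESeq2 called 2697 of 13766. Of the 5 members edgeR tested, 0 were called, 4 had a negative and 1 a positive log2 fold change, and the median was -0.32, beside 0.00 over all genes. Lower in shFos at an unadjusted p under 0.05 was 1 of these 5, Lcn2, beside 14.8% of all genes. By DESeq2, 1 of the 6 members with an adjusted p was called lower in shFos, Saa3, beside 8.28% of all genes. Without NT4 DESeq2 called 2271 of 13669 genes and edgeR 3, and neither called any of the 5 members to which each gave an adjusted p, beside 6.34% of genes called lower by DESeq2 and 0.0133% by edgeR. At an unadjusted p under 0.05, DESeq2 had 4 of 10 members lower with NT4, namely Saa1, Saa2, Saa3 and Lcn2, beside 11.7% of the 19838 genes with a p, and nothing is read from any of these counts with NT4, since it was among the libraries that chose the members. Without NT4 DESeq2 had 3 of 10, Saa1, Saa2 and Saa3, beside 10.7% of 19690, and gave none of these 3 an adjusted p. In edgeR without NT4, 0 of the 5 members that passed the filter had an unadjusted p under 0.05, beside 14.3% of genes with one and a lower level, and without the filter the same 3 of 10 had one, beside 12.3%. Without replicate 1 of both groups edgeR called 2 of 6 members lower, Saa3 and Lcn2, beside 12.6%, and with NT4 also left out 1 of 6, Saa3, beside 14.3%. Nothing is read from either count, since NT4 is in the first fit, and Saa3 entered the fits through the NT kidneys where it is high, with NT1 left out after the data were seen. Every shFos kidney lay below every NT kidney for 0 of the 10 members, beside 8.04% of genes. These counts rested on at most 4 genes. Of these, Saa1 and Saa2 had few reads, most of them in kidney NT1, and no fit without NT1 gave them a value. Their part in the counts without NT4 was therefore not tested apart from NT1. The difference between the effects in kidney and liver was not tested.

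Per kilobase, the order of the members in the kidney by the median of 8 libraries was Lcn2 (56.1), Hp (8.16), Orm1 (5.38), Steap4 (3.57), Hpx (2.09), Saa3 (0.870), Orm2 (0.445), Saa1 (0.375), Saa2 (0.160) and Saa4 (0.110). Every pair of neighbours in that order overlapped between libraries, and within libraries Lcn2 lay above Hp in all 8 kidneys, while each other pair kept its order in 3 to 6 of 8. The order differed between the groups. Saa3 was at rank 3 by the median of the NT kidneys (5.45) and at rank 6 by that of the shFos kidneys (0.765). The 10 members together held 0.00363% of the counted reads in shFos4 (95% Wilson interval 0.00333 to 0.00396), the lowest kidney, and 0.0329% in NT4 (0.0320 to 0.0338), the highest. When kidney and liver were compared in an edgeR fit of all 16 libraries, 10 of 10 members were called higher in the liver, beside 34.8% of the 15421 genes tested; nothing is read from that count, since liver levels chose them. The log2 difference was smallest for Lcn2 (4.03), Saa3 (4.55) and Steap4 (5.53) and largest for Saa2 (11.96), Hpx (11.86) and Orm2 (11.21). Without liver NT4 it was 2.86 for Lcn2, 3.83 for Saa3 and 5.28 for Steap4, and largest for Hpx (11.43), Saa4 (10.63) and Orm2 (10.62), and Saa2 had 9.66.

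Kidney NT4 was high in some of the members that surged in liver NT4 and not in others. Its excess over the median of the other 3 NT kidneys was 3.5 for Saa3, 2.41 for Hp, 1.99 for Lcn2, 0.95 for Saa2, 0.22 for Steap4, 0.15 for Hpx, -0.37 for Saa1, -0.46 for Orm2, -0.80 for Saa4 and -1.61 for Orm1. Over 14892 kidney genes the excess had a median of -0.00 and 5th and 95th percentiles of -1.38 and 0.72, and 349 genes (2.34%) and 3 of 10 members had an excess of at least 1, from which nothing is read, since this library was among those that chose the members. Saa1, the member with the second largest excess in the liver, thus lay below the median of the other NT kidneys in kidney NT4, as did Orm1, though Saa1 was lower in NT3 and Orm1 in NT2. Of the other positive acute-phase genes, 12 of the 19 tested were highest in kidney NT4 (median excess 0.81), beside 24.1% of all genes tested. Serpina3n stood at 9.59, 6.06, 5.01 and 64.1 CPM in NT1 to NT4, and Fgg and Lrg1, named after their values were seen, at 200.3 and 57.0 CPM in NT4, while Il1rn, high in liver NT4, had an excess of -0.40 in the kidney. The mean z-score of the members put the libraries side by side: NT4 had 2.18 in the liver and 0.557 in the kidney, NT1 -0.388 and 0.834, NT2 0.481 and -0.0735, and NT3 -0.714 and 0.0183. For shFos1 to shFos4 the scores were -0.406, -0.338, -0.00926 and -0.802 in the liver and 0.232, -0.203, -0.616 and -0.750 in the kidney. The labels say only that these libraries share a number and a treatment.

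**Figure D3:**
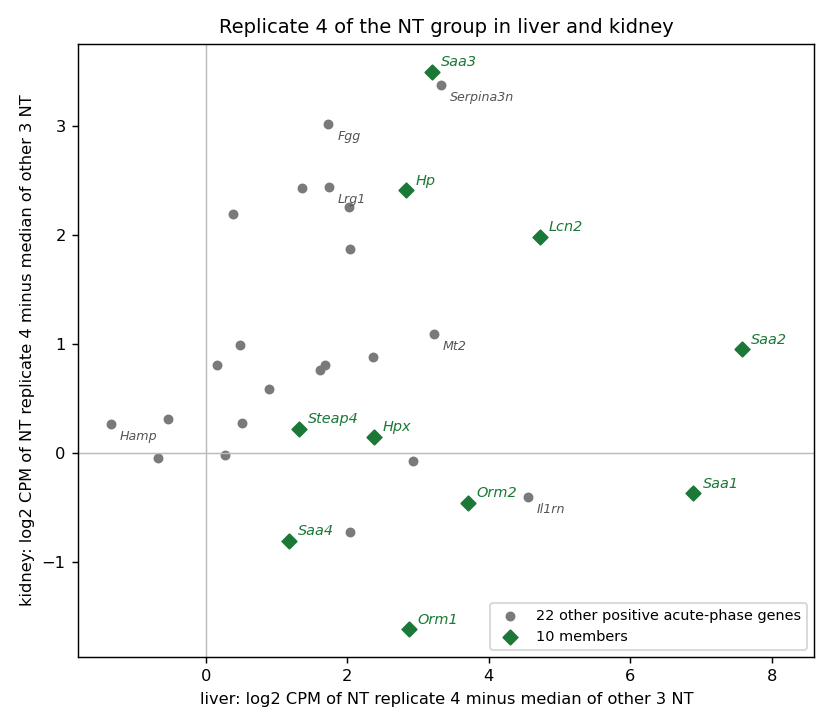
Excess of NT4 over the median of the other 3 NT libraries on the log2 scale, in the liver (horizontal axis) and in the kidney (vertical axis), for the 10 members (diamonds) and 22 other positive acute-phase genes (circles). Saa3, Hp, Lcn2 and Serpina3n are high on both axes, while Saa1 and Il1rn are high in the liver alone.

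Transcripts known from liver and fat were set beside the members in the kidney. Alb stood at 206, 31.8, 76.1 and 40.4 CPM in kidney NT1 to NT4 and 193, 35.4, 51.8 and 85.2 CPM in shFos1 to shFos4, highest in replicate 1 of each group, as Hpx was. Hpx reads over Alb reads came to 0.0574, 0.0572, 0.0411 and 0.0860 in the NT kidneys and 0.0477, 0.0432, 0.0524 and 0.0369 in the shFos kidneys, and all 8 lay within the range of the 7 livers other than NT4, 0.0288 to 0.0864, while liver NT4 had 0.929. Lcn2 reads over Alb reads came to 0.232, 2.18, 0.720 and 5.37 in the NT kidneys and 0.378, 1.02, 0.308 and 0.276 in the shFos kidneys, beside 0.000880 to 0.00682 in the 7 livers other than NT4 and 0.225 in liver NT4, so that the kidney NT1, shFos3 and shFos4 values were near that of liver NT4. The ratios of liver NT4 are high partly because Alb was low there, at 27312 CPM beside 95641 to 169935 CPM in the other livers. At the ratios of liver NT4, the Alb reads of kidney NT4 would go with 141 reads of Lcn2, 414 of Hp, 2.34 of Saa3 and 14.8 of Steap4, and 3375, 904, 340 and 220 were counted. They would go with 583 reads of Hpx, 260.3 of Orm1, 249 of Saa2, 181 of Saa1, 64.8 of Orm2 and 12.5 of Saa4, and fewer were counted, at 54, 26, 6, 6, 4 and 2. At the highest ratios of the other 7 livers they would go with 14.4 reads of Orm1, 1.48 of Saa2 and 2.27 of Saa1, and more were counted. For Hpx, Orm2 and Saa4 these ratios give 54.3, 5.70 and 1.69 reads, and the 54, 4 and 2 counted were too near to be told apart from them. Over the 8 kidneys the log2 levels of Hpx and Alb had r = 0.934 (0.898 without NT1, the lowest with 1 kidney left out), those of Saa4 and Ahsg r = 0.920 (0.891 without shFos1), and those of Orm1 and Adipoq r = 0.807 (0.635 without shFos2), with Adipoq at 33.3, 17.0, 31.1 and 24.5 CPM in the NT kidneys and 16.4, 76.2, 18.8 and 9.90 CPM in the shFos kidneys, highest in shFos2 as Orm1 was. Lcn2, Hp and Saa3 had r = 0.801, 0.821 and 0.860 with Socs3, which stood at 19.0, 17.6, 20.1 and 40.8 CPM in the NT kidneys and 11.8, 16.8, 11.8 and 13.0 CPM in the shFos kidneys, highest in NT4. With Cp, which encodes ceruloplasmin, they had 0.804, 0.823 and 0.862, and with the neutrophil marker S100a8 0.615, 0.638 and 0.743. Those with Socs3 and Cp rested partly on NT4, since without it they were 0.467, 0.495 and 0.581 with Socs3 and 0.441, 0.466 and 0.566 with Cp. Those with S100a8 turned to negative without NT4, at -0.534, -0.522 and -0.0694, so that their positive sign rested on that library. The points share their library, and the reference genes shown were chosen after their values were seen. Where the kidney reads of the members came from was not tested.

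**Figure D4:**
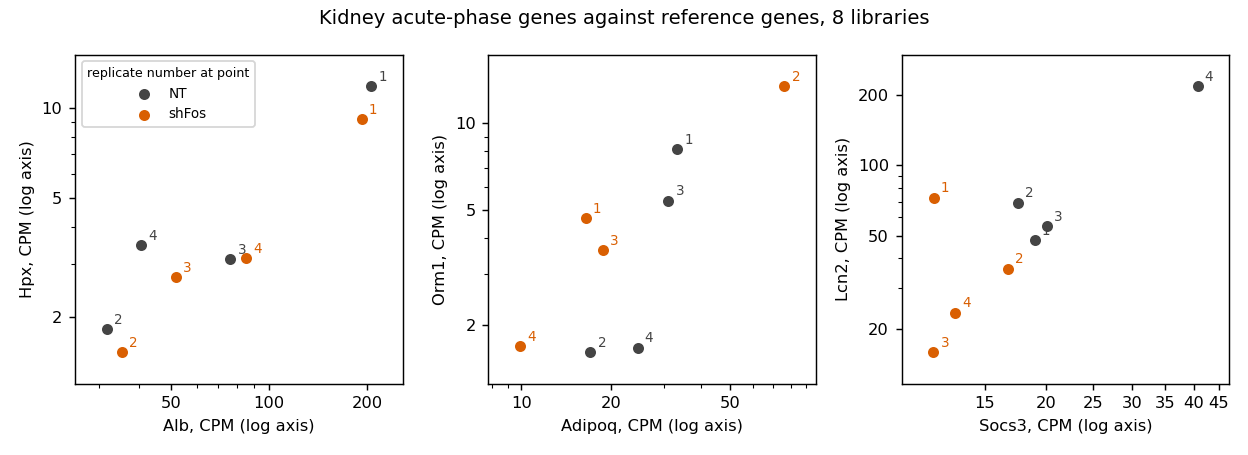
CPM on log axes in the 8 kidneys of Hpx against Alb, Orm1 against Adipoq and Lcn2 against Socs3, dark for NT and orange for shFos, with the replicate number at each point. Replicate 1 of both groups lies at the upper right for Hpx and Alb, shFos2 for Orm1 and Adipoq, and NT4 for Lcn2 and Socs3.

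The lists were also read in the shFos and NT kidneys, where edgeR called 0 of the 86 listed genes it tested, with 28 at an unadjusted p under 0.05. DESeq2 called 20 of 79, of which 12 were lower and 8 higher in shFos, beside 1140 lower and 1557 higher of all 13766 genes. DESeq2 called C3, C4b, Mt1, Mt2, Il1b, Osmr, Cebpd, Nfkbiz, Socs3, Fos, Slc22a17 and Csf3r lower, and Il6st, Jak1, Jak2 and Lrp2 were among those it called higher. Without NT4 DESeq2 again called 20 of these 79, but C3, Mt2, Cebpd, Fos and Jak2 were no longer called, and Lif, Slc12a3, Slc5a2, C1qa and C1qb were. Without shFos1 edgeR called 16 of the 86, 7 lower and 9 higher, beside 4126 of all 15006 genes. Among these 16 were C4b, Osmr, Nfkbiz, Slc22a17 and Csf3r, which were lower, and Il6st, Jak1 and Lrp2, which were higher. The numbers that follow are from edgeR. Of the 19 other positive acute-phase genes tested, 15 had lower fitted levels in shFos and 4 higher (median log2 fold change -0.55), and 6 lower and 1 higher reached an unadjusted p under 0.05, beside 2198 lower and 2549 higher of all 14892 genes. C4b, a complement component, had the smallest p of the list, with a log2 fold change of -1.27 (SE 0.31, adjusted p = 0.0660), followed by Mt1 (-0.91) and Mt2 (-0.88). NT4 was the highest kidney for 12 of the 19, and without it 12 were lower and 7 higher (median -0.22), with Lbp, Fga and Fgg turned to higher, and 2 lower and 0 higher reached an unadjusted p under 0.05. C4b, Mt1 and Mt2 then had log2 fold changes of -1.02, -0.66 and -0.60. Without NT4 and replicate 1 of both groups, 10 were lower and 9 higher (median -0.14), and edgeR called 0 lower and 2 higher, Fga and Cfb, beside 4169 called of all 15053 genes. Of 7 negative acute-phase genes 4 were lower and 3 higher (median -0.08), with log2 fold changes of -0.39 for Ttr, -0.78 for Serpina6 and 0.58 for Rbp4. The 3 ligands tested were all lower (median -0.64), namely Il1b (-1.05), Lif (-0.64) and Tnf (-0.31). Of 7 receptors 4 were lower and 3 higher (median -0.01): Osmr had the smallest p of all listed genes, at -0.57 (SE 0.08, adjusted p = 0.0660), while Il6st, the shared signal chain of the interleukin 6 family, had a positive log2 fold change (0.54), as had Il1rap (0.32). Of 10 signal and transcription genes 7 were lower and 3 higher (median -0.28), with -1.06 for Nfkbiz, an inducer of Lcn2, 0.45 for Jak1 and 0.36 for Jak2. Of the 5 receptor and handling genes, 2 were lower and 3 higher (median 0.05), with 0.78 for Lrp2 (megalin, which takes up filtered lipocalin 2), -0.43 for Slc22a17 and -0.95 for Cd163. With 1 library left out at a time, the medians of the positive acute-phase, ligand and signal lists stayed negative (-0.77 to -0.22, -0.95 to -0.34 and -0.41 to -0.13). Those of the other lists of this group turned, for negative acute-phase genes without NT1 (0.12), where Serpina6 turned too, for receptors without NT1, NT3, shFos2, shFos3 or shFos4 (at most 0.05) and for handling genes without NT4, shFos1 or shFos2 (at least -0.02).

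Cell type markers differed between kidney libraries within each group. Kidney NT4 was the highest kidney for 24.1% and the lowest for 27.0% of all genes tested. Neutrophil markers summed to 9.85, 14.0, 10.3 and 33.4 CPM in NT1 to NT4 and 9.57, 7.44, 11.7 and 7.21 CPM in shFos1 to shFos4, led by Csf3r except in NT4, where S100a9 led, and Ly6g was at 0 in every kidney but NT4. Of the 3 tested all were lower in shFos (median -0.89), with log2 fold changes of -0.84 for Csf3r, -1.06 for S100a8 and -0.89 for S100a9, and 2 of them were highest in NT4, where Lcn2, Hp and Saa3 were highest. Without NT4 these 2, S100a8 and S100a9, turned to higher in shFos (0.37 and 0.59), the median was 0.37, and Csf3r kept -0.84. Macrophage markers, led by Lyz2, summed to 629, 914, 698 and 327 CPM in the NT kidneys and 483, 658, 659.8 and 556 CPM in the shFos kidneys, with all 6 tested lowest in NT4 and 4 lower and 2 higher in shFos (median -0.12); C1qa, Adgre1 and C1qb had log2 fold changes of -0.43, 0.61 and -0.35, and the median ran from -0.34 without NT4 to 0.05 without NT2. Tubule injury markers, led by Spp1 (2442 of the 3015 CPM in NT4), summed to 4535, 3910.3, 3873 and 3015 CPM in the NT kidneys and 3413, 4237, 3728 and 4107 CPM in the shFos kidneys. This sum was lowest in NT4, the highest kidney for Lcn2. Of the 5 markers 3 were lowest in NT4, and Krt20 was highest there, at 5.86 CPM. In shFos 2 of the 5 were lower and 3 higher (median 0.05), with log2 fold changes of 0.58 for Vcam1, -0.60 for Krt20 and -0.18 for Clu. Without NT4 this median was -0.02, and Krt20 turned to 0.16. Tubule and podocyte markers, led by Kap in most kidneys, summed to 19658, 22040.5, 20497 and 11549 CPM in the NT kidneys and 23932, 20990.5, 13819 and 39932 CPM in the shFos kidneys, with 2 of 9 lower and 7 higher in shFos (median 0.45), among them Nphs1 (0.94), and Slc12a3 (-0.56) among the lower. This median ran from 0.18 without shFos4, where Kap turned to lower, to 0.56 without NT3, and it was 0.26 without NT4. Adipocyte markers, led by Fabp4 or Cfd, summed to 376, 238, 424 and 437 CPM in the NT kidneys and 251, 1019, 322 and 145 CPM in the shFos kidneys, and all 7 had positive log2 fold changes (median 0.26), with 0.82 for Plin1, 0.35 for Fabp4 and 0.61 for Lep. That direction rested on shFos2, since without it 6 were lower and 1 higher (median -0.59), with -0.39 for Plin1, -0.46 for Fabp4 and 0.21 for Lep. Hepatocyte markers summed to 1224, 667, 988 and 1161 CPM and 1399, 1631, 2656 and 1837 CPM, led mostly by G6pc, which kidney tubule cells also express, with 4 lower and 4 higher (median -0.17), and 1.36 for G6pc and 1.31 for Apob, and this median ran from -0.66 without shFos1 to 0.42 without NT1. The part of these cell types in the kidney values of the members was not tested.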

How the data were processed

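The counts were deposited by the authors, who trimmed reads with Trimmomatic 0.39, aligned them to mm10 with HISAT2 2.2.1 and counted them with HTSeq 0.12.4 without strand, so that reads on either strand of a gene were counted. HTSeq left 13.4% to 26.7% of reads per library outside genes and 1.84% to 2.64% as ambiguous. The members and lists were chosen with earlier results of these data known. Each tissue was fitted in edgeR 4.0.16 (quasi-likelihood, filterByExpr, TMM, Benjamini-Hochberg over all genes tested, adjusted p under 0.05) in R 4.3.3 with limma 3.58.1, and alternatives included DESeq2 1.42.0. Adjusted p values are edgeR's unless DESeq2 is named. Descriptions were made in Python 3.11.15. The pipeline was tested on simulated data. Sequences came from RefSeq.

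Named genes were the 10 members, up to 3 genes of each list with the largest excess in liver NT4 and up to 3 with the smallest kidney p, the 10 other genes with the largest excess over the other 7 livers, and the 5 with the highest correlation with the members in each tissue. Of these, 1 gene is not reported here. The 12 lists were other positive acute-phase genes, negative acute-phase genes, inducing ligands, receptors, signal and transcription genes, receptors and handling genes of the secreted proteins, and markers of hepatocytes, kidney tubule and podocytes, tubule injury, neutrophils, macrophages and adipocytes. The alternatives were DESeq2, edgeR with the size factors of DESeq2 or with upper-quartile factors, edgeR with its low-count filter dropped or replaced by a mean count of at least 10, 1 fit of all 16 libraries, a replicate block and leaving out each library, and, chosen after the data were seen, a GC correction, leaving out replicate 1 of both kidney groups, alone or with kidney NT4, and leaving out kidney NT4 in DESeq2 and in edgeR without the filter.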

Additional observations from a re-analysis of the deposited data

Results flagged for a closer look

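In 12 of 64 groups of 4 libraries, 40 of member levels and 24 of summed markers, the highest or lowest value lay so far from the nearest other that the gap passed Dixon's 95% limit for 4 values. For normally distributed values chance gives such a gap in about 1 in 20 groups. The values here were CPM without a log, for which that rate need not hold. No excess over chance is read from this count, since the 5 values in liver NT4 and that of Lcn2 in kidney NT4 were among those that chose the members. Of these, 5 were in liver NT4, where Saa1 stood at 7857 CPM, Saa2 at 10838.5, Saa3 at 102, Lcn2 at 6143 and Orm1 at 11321. In the other livers, Hpx was high in shFos3 (11868 CPM), Orm2 was low in shFos4 (107 CPM), and the summed neutrophil markers were high in shFos1 (59.9 CPM). In the kidney, Lcn2 was high in NT4 (217 CPM), Saa2 in NT1 (2.04 CPM), and Hpx in NT1 (11.8 CPM). The last value is Saa2 in kidney shFos1 (0.128 CPM), where 2 reads stood against 0 in the other shFos kidneys: the zeros fix that gap, and a count of 0 allows up to 3 reads, so that nothing is read from it. No cause was tested.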

How the results depend on the processing

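In the kidney, edgeR called 0 genes, with 4747 at an unadjusted p under 0.05. DESeq2 called 2697, the fit without a low-count filter 3, the fit of all 16 libraries 994, the replicate block 0 (3789 at an unadjusted p under 0.05), and the fit without replicate 1 of both groups, added after the data were seen, 3458, or 4169 with NT4 also left out. Without NT4, also added then, DESeq2 called 2271 and edgeR without the filter 5. Leaving out 1 library gave 0 (lowest) to 4126 (highest, without shFos1). In the liver, edgeR called 0 (886 at an unadjusted p under 0.05), the replicate block 0 (600 at an unadjusted p under 0.05), DESeq2 37 and leaving out 1 library 0 to 0. Between tissues 11427 were called, and 11243 to 12381 under the alternatives. Of 100 kidney values under alternatives of the 5 members that edgeR tested, 97 kept their direction and their side of the threshold, Lcn2 passed it without replicate 1 of both groups (-2.22), and Hpx without NT1 (0.56) and Orm1 without shFos2 (-0.33) reversed. Saa3, which the filter removed, passed it under DESeq2 (-4.27), without replicate 1 of both groups (-4.40) and with NT4 also left out there (-2.76), and not in the other 9 alternatives that gave an adjusted p; nothing is read from these passes, since the first 2 fits hold NT4 and the last 2 leave out NT1, where Saa3 is lowest in NT. With 1 library left out, Hpx ran from -1.09 to 0.56 and Orm1 from -0.33 to 1.02. Of 160 liver values, 8 moved by over 1 SD: without NT4, Saa1 to -1.47, Saa2 to -1.45, Saa3 to -0.35, Lcn2 to -1.40, Hp to -0.13 and Orm1 to -0.26, and with the replicate block Saa1 to -1.75 and Saa2 to -1.95. All 190 tissue values kept theirs. The cause was not tested. Libraries of the same number, compared over genes by their deviations from the group mean, correlated at -0.17 to 0.12 between kidney treatments, -0.26 to 0.04 between liver treatments, 0.12 to 0.40 between tissues in NT (other numbers -0.42 to 0.22) and 0.04 to 0.16 in shFos (-0.18 to 0.12). Between tissues 3 of 4 libraries in each treatment correlated best with their own number, a hint from the data and not from the labels, and the tissue count with that block was 11302. Depth limited Saa1, Saa2, Saa4 and Orm2 in the kidney, where a count of 0 allows up to 3 reads.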
